A study of Mus musculus with 6 samples.

Results

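The CC and CXC chemokine ligands are small secreted proteins, and 9 of the 10 genes on the list examined here had values in the deposited table: Ccl2, Ccl3, Ccl4, Ccl5, Ccl7, Ccl9, Ccl12, Cxcl2 and Cxcl10. The list names its members by gene symbol, with no threshold on a measured value, and the table holds 12327 genes. It was drawn up with earlier results of these data known. Cxcl16 had no row in that table and was not analysed here. The RNA came from BV2 cells, an immortalised mouse microglial line, in 3 libraries labelled GCH1-KD (given an adenovirus named Ad-shGCH1 for 48 hours) and 3 labelled negative control (named Ad-NC). GCH1 is GTP cyclohydrolase I, the enzyme that commits GTP to synthesis of the cofactor tetrahydrobiopterin. The series text calls the controls wild type, and whether they received a virus is unclear from these labels, so the hairpin and the infection itself cannot be told apart. All 6 libraries were made from total RNA depleted of ribosomal RNA, from cells grown in high-glucose medium with serum, with no inflammatory stimulus named in the labels. BV2 is a single cell line, and no separate cultures are named for the 3 libraries of a group, so each p-value reflects library-to-library spread alone, possibly of technical origin.

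Chemokines draw leukocytes along a concentration gradient by binding G protein-coupled receptors on the cell that moves. Microglia and macrophages are a major source of them in the nervous system. Many are immediate products of inflammatory signalling: NF-kB, interferon regulatory factors and AP-1 bind near their starts, and AU-rich elements in the 3′ UTR shorten the life of several of the messages. The family names come from the first cysteines of the mature protein, which are adjacent in CC ligands and separated by 1 residue in CXC ligands.

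The 30 coding bases around those first cysteines are shown for 8 of the genes because they sort them into the 2 classes. They were read from the GENCODE M21 transcript with the longest coding sequence, sense strand, with the defining cysteine codons in capitals.
Ccl2: gccccactcaccTGCTGCtactcattcacc
Ccl7: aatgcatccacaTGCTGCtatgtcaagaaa
Ccl12: accccagtcacgTGCTGTtataatgttgtt
Ccl4: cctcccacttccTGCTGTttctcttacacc
Ccl5: gacaccactcccTGCTGCtttgcctacctc
Ccl9: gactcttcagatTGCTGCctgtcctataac
Cxcl2: agtgaactgcgcTGTcaaTGCctgaagacc
Cxcl10: aggacggtccgcTGCaacTGCatccatatc

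In 6 of these 8 genes the 2 codons were adjacent, and in Cxcl2 and Cxcl10 another codon stood between them. The first of the 2 cysteines was codon 30 to 36 in 7 genes and codon 57 in Ccl9, whose protein begins with a longer stretch before it. Ccl2 had the longest coding sequence of the 8, with 148 codons, against 91 to 122 in the others.

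The data are values in FPKM (fragments scaled by transcript length and library size), which allow levels of different genes to be set side by side. A value of 1 FPKM corresponded to an estimated 5.25 to 5.58 aligned bases over each transcript position in the control libraries and 6.32 to 7.61 in the knockdown libraries, so the knockdown libraries were the deeper ones with no overlap. Gch1 was at 6.89, 7.22 and 7.23 FPKM in controls and 3.20, 2.93 and 3.43 FPKM with knockdown, or 44.8% of control, as labelled in each library (log2 fold change -0.96, SE 0.06, limma adjusted p = 0.00542, and 0.0604 with the replicate number as a block). Of the macrophage and microglial markers, 11 of 12 had a row, among them Cd68 at 448 to 498 FPKM and Csf1r at 48.8 to 54.8 FPKM, while the homeostatic microglial markers were weak (Tmem119 at 0.489 to 0.689 FPKM) or without a row (P2ry12). Marker lists of neurons and neutrophils had 0 of 5 genes with a row. Those of astrocytes, oligodendrocytes, fibroblasts and lymphocytes had 1 of 5 each, and endothelial cells 2 of 5. Over the 6 libraries the astrocyte marker Aldoc was at 24.7 to 28.6 FPKM and the oligodendrocyte marker Cnp at 4.89 to 5.8 FPKM. The summed endothelial values, mostly Flt1 (21.3 to 23.5 FPKM), were 26.4 to 27.4 FPKM in controls and 26.2 to 28.8 FPKM with knockdown. The summed macrophage and microglial markers were 934.6 to 951.1 FPKM in controls and 883.9 to 940.1 FPKM with knockdown. Cd68 was the largest part of that sum. Of the 11 markers, Cd68 (log2 -0.09) and Trem2 (-0.03) were lower without overlap, as were 8.36% of all genes tested. Itgam varied widely within groups, at 19.7, 31.1 and 7.22 FPKM in controls and 19.5, 7.10 and 23.0 FPKM with knockdown. None of the 11 passed, 4 lay above control and 7 below, and the 1 at an unadjusted limma p under 0.05 was higher, Aif1 at 127% of control (log2 0.24, limma adjusted p = 0.417) with overlapping groups. The part of this, and of the unequal depth, in the ligand values was not tested. Lck, the only lymphocyte marker with a row, was at 0.895 FPKM or more in controls and 0.875 FPKM or less with knockdown.

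Across the 9 ligands the levels spanned 3 orders of magnitude, and a single gene supplied most of the ligand RNA. Ccl3 (also called MIP-1α) ranked 6 of 12327 genes by mean level. Ccl4 (MIP-1β) ranked 57 and Ccl2 (MCP-1) ranked 1923. The other 6 lay between 0.680 and 6.41 FPKM in every library. The sum of the 9 ligands was 2351 to 2547 FPKM in controls and 2085 to 2433 FPKM with knockdown, with overlap, and Ccl3 made up 82.9% to 85.2% of it in each library. Without Ccl3 the sum was 393, 409 and 372 FPKM in controls and 320, 360 and 338 FPKM with knockdown, without overlap, and most of that sum was Ccl4. In order of level, Ccl3, Ccl4 and Ccl2 were each apart from the gene below over the 6 libraries, by 6.05-fold, 15.0-fold and 3.96-fold of their means, and Ccl7 from Ccl9 by 1.85-fold. The ranges of Cxcl2 and Ccl5, of Ccl5 and Ccl7, of Ccl9 and Ccl12, and of Ccl12 and Cxcl10 overlapped, so the order within these pairs is not resolved.

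**Figure D1:**
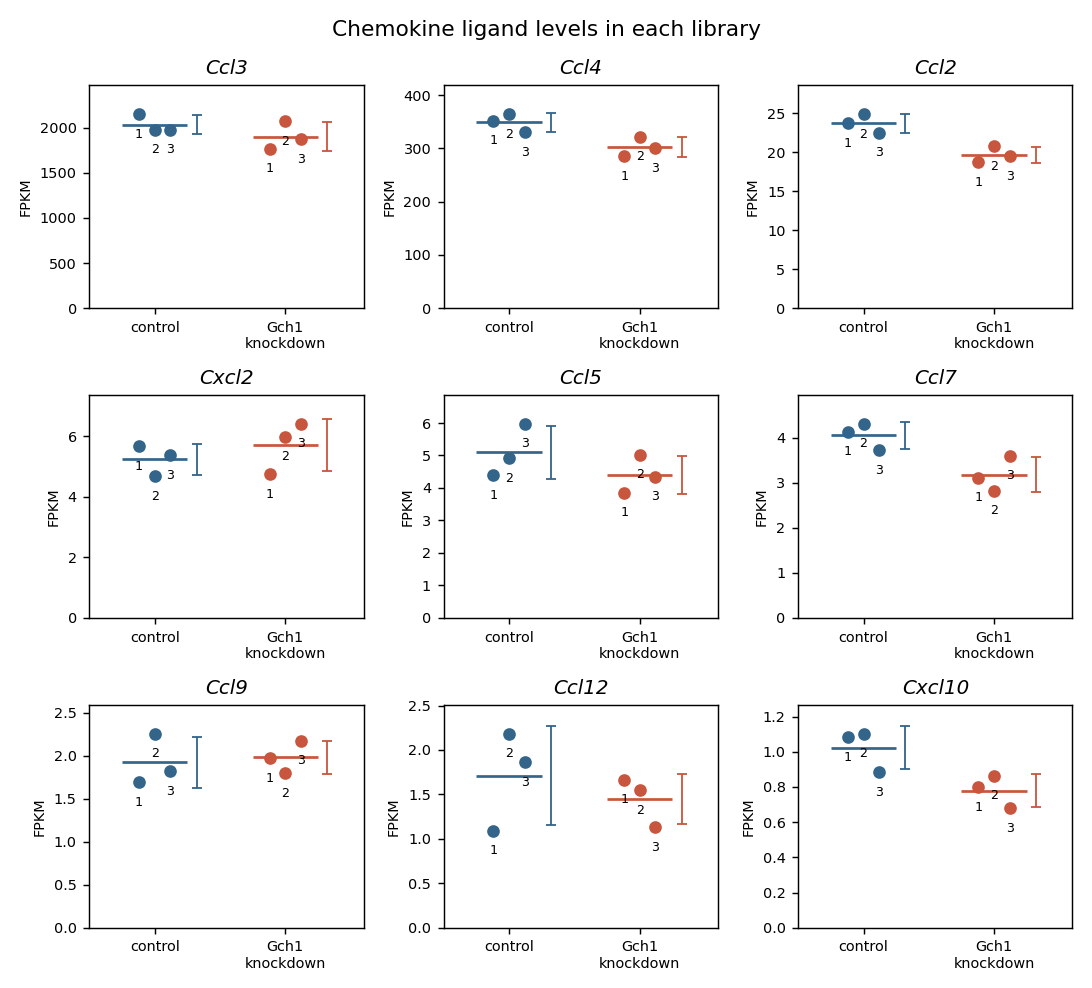
Level of each of the 9 chemokine ligands in FPKM (vertical axes start at 0) in the 3 control and 3 Gch1 knockdown libraries, ordered by mean level; points are libraries with their replicate number, horizontal lines are means and the bars beside them 1 SD. The groups are separate for Ccl2, Ccl4, Ccl7 and Cxcl10 and overlap for the other 5.

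Comparing knockdown with control asks whether chemokine output at the RNA level differs when Gch1 is reduced. No ligand passed the test over all genes: 0 of 9 had a limma adjusted p under 0.05, against 0.0818% of the 12222 genes tested (0.0573% lower and 0.0245% higher). Below that threshold, 7 of 9 had a lower mean after knockdown (47% of all genes tested did), and 4 of 9, Ccl2, Ccl4, Ccl7 and Cxcl10, had all 3 knockdown libraries below all 3 controls (8.36% of all genes). The same 4 genes were lower at an unadjusted limma p under 0.05, which held for 4.82% of all genes, and 0 of 9 were higher at that p (6.47% of all genes). Of the 3 further ligand genes with a row, which are not on the list, 2 were higher at that p (Ccl6 and Ccl25) and 1 lower (Cxcl14). The median log2 fold change of the 9 was -0.17, against 0.01 over all genes tested. All 9 met the filter of 0.5 FPKM in at least 3 libraries, with 0.680 FPKM or more in each of the 6. The members are related genes, 7 of them on chromosome 11, and are not independent of each other. They were also chosen with earlier results of these data known, so these counts are description only.

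**Figure D2:**
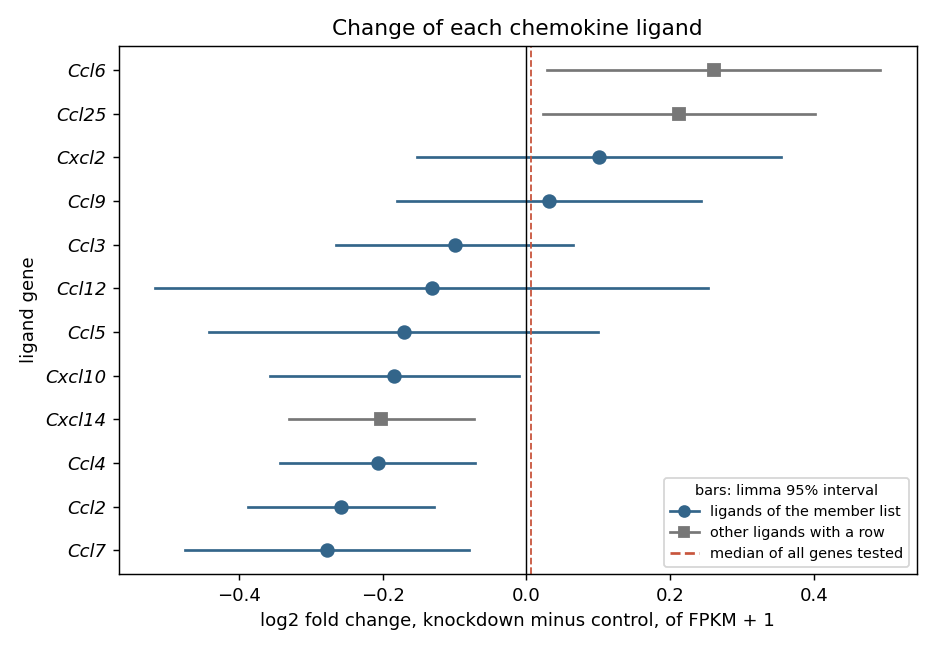
Log2 fold change, knockdown minus control, on the scale of log2(FPKM + 1), for the 9 ligands (circles) and the 3 further ligand genes with a row (squares); bars are limma 95% intervals and the dashed line is the median of all genes tested (0.01). The intervals of Ccl7, Ccl2, Ccl4, Cxcl10 and Cxcl14 lie below 0 and those of Ccl6 and Ccl25 above it, but none passed the adjusted test.

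The monocyte-attracting ligands Ccl2, Ccl7 and Ccl12 bind Ccr2, the receptor that brings monocytes out of the marrow and into inflamed tissue, and they lie on chromosome 11 of GRCm38, all on the plus strand, with the starts of Ccl7 and Ccl12 at 10.1 and 66.3 kb from that of Ccl2. Ccl2 (ENSMUSG00000035385.5, 82035571 to 82037453) was at 23.7, 24.9 and 22.5 FPKM in control libraries 1, 2 and 3, and at 18.7, 20.8 and 19.5 FPKM in knockdown libraries 1, 2 and 3. The highest knockdown library lay below the lowest control. The means were 23.7 ± 1.20 and 19.7 ± 1.04 FPKM (SD, n = 3 each), or 83.0% of control. The log2 fold change was -0.26 (SE 0.05, limma adjusted p = 0.261), which ranked 95 of 12222 by p, the foremost of the 9.

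Ccl7 (MCP-3; ENSMUSG00000035373.2, 82045712 to 82047525) was at 4.14, 4.31 and 3.73 FPKM in controls and 3.11, 2.83 and 3.60 FPKM with knockdown. Its groups did not overlap, but knockdown library 3 came close to control library 3. At 78.3% of control, its log2 fold change was -0.28 (SE 0.08, limma adjusted p = 0.338). Ccl12 (MCP-5; ENSMUSG00000035352.3, 82101845 to 82103400) was at 1.09, 2.18 and 1.86 FPKM in controls and 1.67, 1.55 and 1.13 FPKM with knockdown. It had the widest spread of the 9, with a coefficient of variation of 32.7% in the controls, and its groups overlapped. Its log2 fold change was -0.13 with a limma 95% interval of -0.52 to 0.25, which holds both 0 and the value of Ccl2. It ran from -0.31 without control library 1 to -0.01 without control library 2. The ratio of Ccl2 to Ccl7 was 5.72 to 6.03 in the controls and 5.41 to 7.34 after knockdown, with overlap.

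Ccl3, Ccl4 and Ccl5 are inflammatory CC ligands, of which Ccl3 and Ccl5 bind Ccr1, and they attract macrophages, T cells and dendritic cells. Ccl3 (ENSMUSG00000000982.5, chromosome 11, 83647844 to 83649355, minus strand) stood at 2153, 1979 and 1979 FPKM in controls and 1765, 2073 and 1873 FPKM with knockdown. Knockdown library 2 lay above 2 of the 3 controls. Its log2 fold change was -0.10 (SE 0.07, 95% interval -0.26 to 0.07, limma adjusted p = 0.613). It was -0.06 without control library 1, -0.05 without knockdown library 1 and -0.16 without knockdown library 2. Ccl4 (ENSMUSG00000018930.3, 83662584 to 83664683, plus strand) lies next to it on the other strand, their starts at 119 and 132 kb from that of Ccl5. It was at 352, 364 and 330 FPKM in controls and 285, 321 and 300 FPKM with knockdown, without overlap. Its means were 349 ± 17.2 and 302 ± 18.4 FPKM (SD, n = 3 each), or 86.6% of control, and the log2 fold change came to -0.21 (SE 0.06, limma adjusted p = 0.307). The ratio of Ccl3 to Ccl4 was 5.43 to 6.13 in the controls and 6.20 to 6.45 after knockdown. Those ranges did not overlap, and this ratio was looked up after the values had been seen.

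Ccl5 (RANTES; ENSMUSG00000035042.2, 83525778 to 83530518, minus strand) stood at 4.40, 4.91 and 5.97 FPKM in controls and 3.85, 5.02 and 4.34 FPKM with knockdown, with overlapping groups and a log2 fold change of -0.17 (95% interval -0.44 to 0.10), which was -0.07 without control library 3 and -0.10 without knockdown library 1. Ccl9, a ligand of Ccr1 made by myeloid cells (ENSMUSG00000019122.8, 83572919 to 83578636, minus strand), stood at 1.69, 2.26 and 1.82 FPKM in controls and 1.97, 1.80 and 2.18 FPKM with knockdown. The 2 groups covered almost the same range, and the log2 fold change was 0.03 (95% interval -0.18 to 0.24), turning to -0.03 without control library 1 and -0.01 without knockdown library 3.

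The 2 CXC ligands had opposite signs, neither of them past the adjusted test. Cxcl10 (IP-10), an interferon-induced ligand of Cxcr3 that attracts activated T cells (ENSMUSG00000034855.13, chromosome 5, 92346638 to 92348889, minus strand), stood at 1.08, 1.10 and 0.882 FPKM in controls and 0.797, 0.862 and 0.680 FPKM with knockdown. The gap between the lowest control and the highest knockdown library was narrow. Cxcl10 stood at 76.3% of control in FPKM, with a log2 fold change of -0.18 on the log2(FPKM + 1) scale (SE 0.07, limma adjusted p = 0.417), which understates a change at so low a level. With a pseudocount of 0.1 the log2 fold change was -0.35 (limma adjusted p = 0.425). Its estimated coverage was only 4.30 to 6.07 bases per transcript position, the thinnest of the 9. Cxcl2 (MIP-2), a neutrophil attractant that binds Cxcr2 (ENSMUSG00000058427.10, 90903871 to 90905938, plus strand), was at 5.68, 4.68 and 5.37 FPKM in controls and 4.75, 5.98 and 6.41 FPKM with knockdown. Knockdown libraries 2 and 3 lay above every control and knockdown library 1 near the lowest control, and the log2 fold change was 0.10 (95% interval -0.15 to 0.35). It was 0.21 without knockdown library 1 and 0.03 without either control library 2 or knockdown library 3.

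Gene by gene, a two-sided exact permutation test gave p = 0.1 for Ccl2, Ccl4, Ccl7 and Cxcl10, the smallest that 3 against 3 can give, and 0.3 to 0.8 for the other 5.

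**Figure D3:**
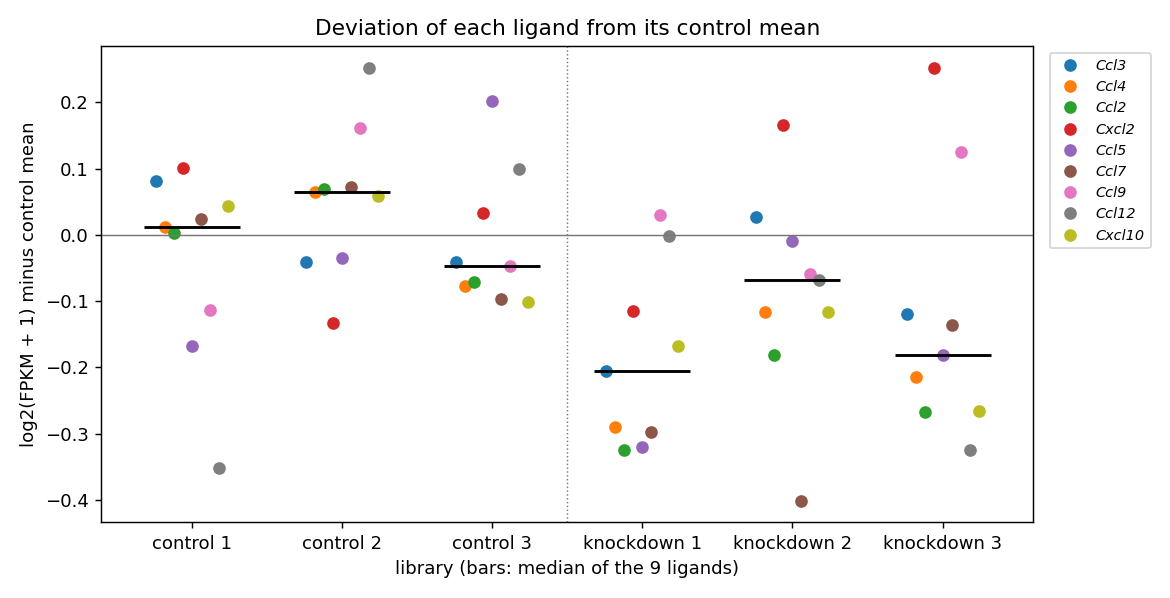
Deviation of each ligand from its own control mean on the log2(FPKM + 1) scale, by library; points are the 9 ligands and black bars their median in a library. The medians are 0.01, 0.06 and -0.05 in control libraries 1 to 3 and -0.21, -0.07 and -0.18 in knockdown libraries 1 to 3.

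The ligands did not sit at the same offset in each library. Relative to the control means, 8, 7 and 7 of the 9 were below 0 in knockdown libraries 1, 2 and 3, against 3, 3 and 6 in control libraries 1, 2 and 3. The medians of knockdown library 2 (-0.07) and control library 3 (-0.05) were close. Without knockdown library 2 the median log2 fold change of the 9 was -0.22, and without control library 3 it was -0.12. The count of ligands lower without overlap was 6 without knockdown library 2 (12.2% of all genes), 5 without control library 1 (13.6%) and 4 without each other library (12.9% to 13.8%). With 1 library fewer more genes separate, so these counts are not comparable with the 4 of 9 over all 6 libraries.

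The chromosome 11 genes form 2 clusters, and within the cluster around Ccl5 the signs were mixed. Ccl6, a further CC ligand made by macrophages that lies 62.6 kb from the start of Ccl5, was at 20.7, 19.4 and 19.5 FPKM in controls and 23.9, 20.7 and 27.9 FPKM with knockdown. Knockdown library 2 lay just below the highest control, and the log2 fold change was 0.26 (SE 0.10, limma adjusted p = 0.391), and 0.16 without knockdown library 3. Between the ligands and other genes of this stretch, Wfdc17, which encodes a small secreted protein of activated macrophages and starts 41.4 kb from Ccl4, was at 108, 109 and 94.6 FPKM in controls and 133, 125 and 132 FPKM with knockdown, without overlap (log2 fold change 0.32, SE 0.06, limma adjusted p = 0.239). The cluster map therefore shows Ccl4 below its controls with Wfdc17 above them, while Ccl9 lay near 0. Of the 14 non-chemokine genes that start within 250 kb of a ligand, none passed, 8 were above control and 6 below. Their median log2 fold change was 0.02. Besides Wfdc17, those with the smallest p were AA465934 (log2 0.27), Heatr6 (-0.12) and Scarb2 (0.11, and 0.07 without control library 1).

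**Figure D4:**
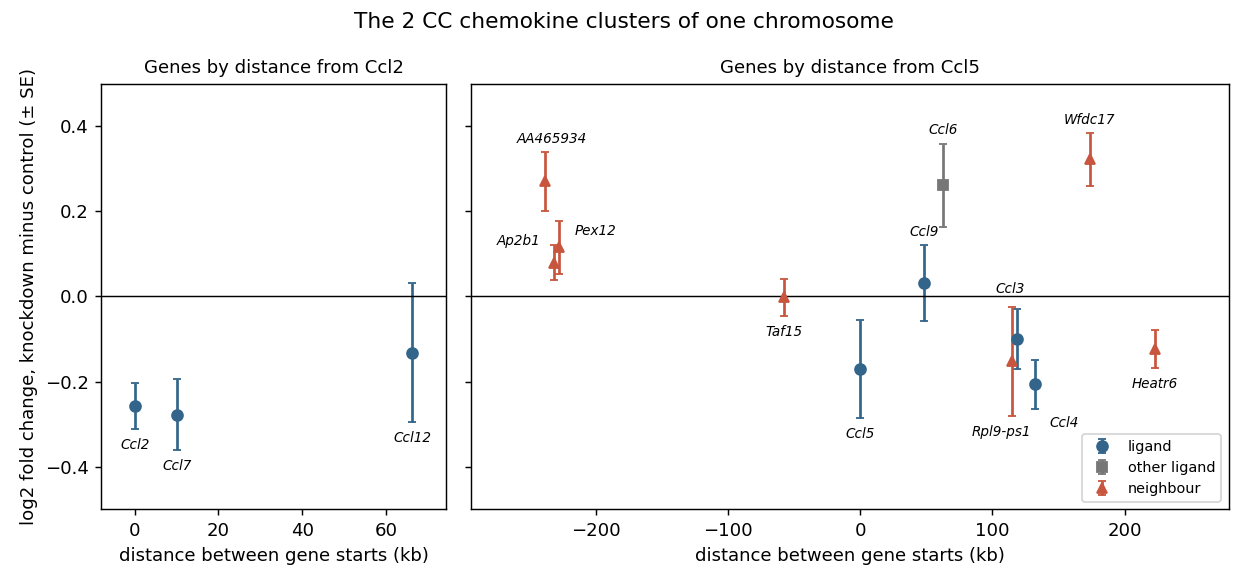
Log2 fold change, knockdown minus control, on the log2(FPKM + 1) scale (± SE) of the genes of the 2 chromosome 11 clusters against the distance of their start from that of Ccl2 (left) or Ccl5 (right) in kb; circles are ligands of the list, squares a further ligand and triangles other genes. Ccl2 and Ccl7 lie together near -0.26 and -0.28, and in the right panel Ccl6 (0.26) and Wfdc17 (0.32) lie above 0 while Ccl3 (-0.10) and Ccl4 (-0.21) lie below.

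Of 27 further protein-coding genes named Ccl, Cxcl, Cx3cl or Xcl and a number in GENCODE M21, 3 had a row, and none passed. Besides Ccl6 they were Cxcl14 and Ccl25. Cxcl14, a ligand of epithelia and macrophages, was at 1.81, 1.86 and 1.81 FPKM in controls and 1.42, 1.42 and 1.53 FPKM with knockdown. Its 6 values formed 2 tight sets (log2 fold change -0.20, SE 0.05, limma adjusted p = 0.307). Ccl25, the ligand of Ccr9, was at 1.92, 2.46 and 2.50 FPKM in controls and 2.80, 2.77 and 2.85 FPKM with knockdown, above every control (log2 0.21, SE 0.08, limma adjusted p = 0.394), and its log2 value was 0.13 without control library 1. Pf4, a CXC ligand with another style of name that was looked up after its values were seen, was at 74.2 to 75.6 FPKM in controls and 65.9 to 76.5 FPKM with knockdown (log2 -0.05).

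On the receptor side, 5 of 23 chemokine receptor genes had a row, and neither Ccr2 nor Cxcr3 was among them, so these receptors of Ccl2, Ccl7, Ccl12 and Cxcl10 were not analysed here. No receptor passed. Cxcr4, the receptor of Cxcl12 that holds leukocytes in the marrow, was the most abundant of the 5. It was at 15.4, 16.2 and 15.8 FPKM in controls and 17.9, 20.3 and 17.8 FPKM with knockdown, without overlap (log2 fold change 0.22, SE 0.06, limma adjusted p = 0.292). Groups higher without overlap made up 9.99% of all genes. Ccr1, a receptor of Ccl3, Ccl5 and Ccl9, was at 1.30 to 1.66 FPKM in controls and 1.29 to 1.39 FPKM with knockdown (log2 -0.07). Cxcr2, the receptor of Cxcl2, was at 0.640 to 0.888 and 0.630 to 0.913 FPKM (log2 -0.02, with the sign turning to 0.03 without control library 3). Ccrl2, a nonsignalling receptor that presents chemerin, was at a log2 fold change of 0.13, and 0.20 without control library 1. The fractalkine receptor Cx3cr1, a microglial marker, was at 0.597, 0.30 and 3.16 FPKM in controls and 0.430, 0.480 and 0.541 FPKM with knockdown. Control library 3 alone set its log2 fold change of -0.47, which was 0.04 without that library.

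The genes downstream of the receptors and upstream of ligand transcription were described by lists, and none of their members passed the adjusted test. All 27 signalling genes had values (14 above control, 13 below, median log2 fold change 0.00). The 4 with the smallest p were Rgs2, a brake on G protein signalling (0.25), the kinase gene Ptk2b (-0.13), the G protein subunit gene Gnb1 (-0.10) and the leukocyte GTPase gene Rac2 (-0.11). Of the NF-kB genes, 23 of 24 had values (11 above, 12 below, median -0.01). Tnf, a cytokine that induces several of the ligands, was at -0.24, Irak4 at 0.18, Tlr2 at 0.07 and Rel at 0.09. In each list the genes named are those of smallest p and not those of largest change. Log2 fold changes ran from -0.63 to 0.18 over the NF-kB genes and from -0.16 to 0.43 over the signalling genes. All 18 interferon pathway genes had values (8 above, 10 below, median -0.02), with Irf7 at -0.21, Irf5 at 0.50, Ifngr1 at 0.10 and Ifnar2 at -0.10. The groups of Irf5 overlapped, with controls at 5.80, 11.5 and 7.39 FPKM, and its value was 0.31 without control library 1 and 0.75 without control library 2.

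Among 16 measured AP-1, C/EBP and MAP kinase genes 11 lay below control, 5 of them without overlap, and the median log2 fold change was -0.06, where 47% of all genes had a lower mean and 8.36% were lower without overlap. Lower without overlap were also 5 of the 18 interferon genes, 4 of 27 signalling genes and 2 of 23 NF-kB genes. Higher without overlap were 5 of 27 signalling genes, 4 of 23 NF-kB genes and 2 of 18 interferon genes. In the AP-1, C/EBP and MAP kinase list 1 of 16 was higher without overlap, where 9.99% of all genes tested were. Fosl1, an AP-1 subunit, was at 7.81, 8.15 and 7.86 FPKM in controls and 6.82, 6.73 and 6.92 FPKM with knockdown (log2 -0.19). Cebpb, a myeloid factor that acts on inflammatory genes, was at 105 to 109 and 89.0 to 98.0 FPKM (log2 -0.18), and Jund at 131 to 143 and 115 to 127 FPKM (log2 -0.16). Mapk14 (p38α) was at 17.8, 17.4 and 10.6 FPKM in controls and 9.90, 8.69 and 8.75 FPKM with knockdown (log2 -0.65, limma adjusted p = 0.307). Only when control library 3 was left out did it pass (log2 -0.88, limma adjusted p = 0.0254); its alternatives ran from 0.0254 to 0.534.

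All 14 genes of message decay had values (10 above, 4 below, median log2 fold change 0.04). Lower without overlap were 2 of the 14, and 0 were higher without overlap. Zfp36 (tristetraprolin), which binds AU-rich elements and shortens the life of chemokine messages, was at 13.1, 11.9 and 13.0 FPKM in controls and 10.7, 10.6 and 11.7 FPKM with knockdown (log2 -0.18 to 2 decimals, limma adjusted p = 0.353). Khsrp was at -0.09, Cnot7 at 0.15 and Tia1 at 0.20. These were named for their small p, and the highest log2 fold change of the list was 0.32. Knockdown library 1 alone set the value of Tia1 (2.68 FPKM, against 1.75 and 1.54 FPKM in the other knockdown libraries), which was 0.04 without it. Of all genes tested 47% had a lower mean, 8.36% were lower without overlap and 9.99% were higher without overlap. Of the genes for cutting and presenting chemokines, 17 of 19 had values and 14 lay below control, 4 of them without overlap (median -0.03). The 4 with the smallest p there were the proteoglycan gene Sdc3 (-0.12), the gelatinase gene Mmp9 (-0.20), the heparan sulfate enzyme gene Hs6st1 (-0.10) and the tyrosine sulfation gene Tpst2 (-0.33, and -0.50 without control library 2).

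The 3′ UTRs of the ligands differed widely in AU-rich content, and sites are shown because such elements are known to shorten the life of chemokine messages. The pentamer searched was ATTTA on the sense strand, overlaps counted, in the same transcripts. It occurred in 66.7% of 10288 UTRs of at least 50 bases from tested protein-coding genes. The 30-base window with the most copies is given for 5 ligands, with every copy in capitals. On GRCm38 they are chr5:90905327-90905356 (plus strand) for Cxcl2, chr11:83648075-83648104 (minus) for Ccl3, chr11:82103325-82103354 (plus) for Ccl12, chr11:82047254-82047283 (plus) for Ccl7 and chr11:82037205-82037234 (plus) for Ccl2.
Cxcl2: tATTTATTTAtctatgtATTTATTTATTTA
Ccl3: ttgaaattttATTTAATTTAatcctattgg
Ccl12: ATTTAaacaaacttgcttaaataatATTTA
Ccl7: tattaatatttttATTTAattagccatgta
Ccl2: taatattaaacttATTTAacttattgatgt

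Cxcl2 had 11 copies in 734 bases and was the only ligand of the 9 with the nonamer ATTTATTTA, which 3.2% of UTRs of like length held. As many copies or more were found in 0.1% of such UTRs. Ccl12 had 5 copies in 167 bases and Ccl3 5 in 409 bases, which 0.3% and 1.0% of UTRs of like length matched or exceeded. Ccl4, Ccl7 and Cxcl10 had 2 each and Ccl2 had 1, which 11.5%, 17.3%, 34.3% and 35.9% of like UTRs matched. Ccl9 had 5 in 2465 bases (42.7%) and Ccl5 had 0 in 199 bases. The 4 ligands lower without overlap held 1 or 2 copies each, or 2.7 to 6.6 per kb. Of the ligands with overlap, Ccl5 (0.0 per kb) and Ccl9 (2.0) lay below that, and Ccl3, Cxcl2 and Ccl12 (12.2 to 29.9) above. A link between copies and change was not tested. A match is a description of the sequence and not a measured site of decay.

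Windows of 250 bases before to 50 after the start were in the RefSeq table for 5 of the 9 ligands (Ccl3, Ccl9, Ccl12, Cxcl2 and Cxcl10; build GRCm38.p6). The pair of CXC ligands is shown, as their values lay on opposite sides of control. Capitals mark matches, on either strand and with overlaps merged, to 5 motifs: the NF-kB and the interferon-stimulated response element consensus, each of 10 letters with free positions, AP-1, C/EBP and the TATA box. The Cxcl10 window is chr5:92348840-92349139, minus strand, and that of Cxcl2 chr5:90903649-90903948, plus strand.
Cxcl10: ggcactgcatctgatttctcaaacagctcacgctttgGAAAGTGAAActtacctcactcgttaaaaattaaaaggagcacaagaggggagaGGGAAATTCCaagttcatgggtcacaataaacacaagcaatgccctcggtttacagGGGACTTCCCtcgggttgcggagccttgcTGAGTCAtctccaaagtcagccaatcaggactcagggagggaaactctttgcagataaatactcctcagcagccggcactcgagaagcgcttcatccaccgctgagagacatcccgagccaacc
Cxcl2: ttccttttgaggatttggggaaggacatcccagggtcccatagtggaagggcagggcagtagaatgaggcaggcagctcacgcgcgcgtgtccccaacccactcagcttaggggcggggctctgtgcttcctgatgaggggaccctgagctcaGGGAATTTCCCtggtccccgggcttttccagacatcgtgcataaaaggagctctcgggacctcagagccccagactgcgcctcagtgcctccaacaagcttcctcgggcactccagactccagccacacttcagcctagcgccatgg

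The Cxcl10 window held 2 NF-kB matches, GGGAAATTCC at position -159 from the start and GGGACTTCCC at -103. It also held 1 interferon match, GAAAGTGAAA on the opposite strand at -213, and 1 to AP-1 at -74. The Cxcl2 window held the NF-kB letters on both strands in overlapping positions, at -97 and -96, and no other match. Among all 32851 windows of this length, 4.01% held the NF-kB letters and 3.44% the interferon letters. The AP-1 motif, searched as TGANTCA, was in 7.81% of them. For C/EBP the letters searched were TTNNGCAA, present in 10.8%, and the TATA box, searched as TATAAA, was in 13.6%. The Ccl9 window held TATAAA and AP-1 matches, that of Ccl12 TATAAA at -31, and that of Ccl3 none of the 5. Sites that depart from the letters searched were not counted.

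Genes whose pattern over the 6 libraries was most like that of 2 ligands were named by the root mean square (RMS) difference of centred log2(FPKM + 1) values, over genes with a mean of at least 1 FPKM. For Ccl2, which itself deviated from its mean by 0.14 RMS, they were Procr, Fam20c and Metrnl (RMS difference 0.01, 0.03 and 0.04). Procr was at 62.8 ± 2.96 FPKM in controls and 52.7 ± 3.01 FPKM with knockdown (SD, n = 3 each). For Cxcl10, at 0.11 RMS, they were Mex3c, Plk2 and Tuba8 (0.02, 0.03 and 0.03). The added 1 FPKM compresses changes at low levels. Cxcl10 was at 76.3% of control, Tuba8 at 79.0%, and Mex3c and Plk2 at 87.3% and 87.1%. With a pseudocount of 0.1 the log2 fold change was -0.35 for Cxcl10, -0.32 for Tuba8 and -0.20 for Mex3c and Plk2. The groups of Mex3c overlapped, while those of Cxcl10 did not. These are likenesses over 6 libraries and on this scale only.

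Shared sequence could mix the reads of some ligands. No window of 50 bases in the transcripts of Ccl2, Ccl3, Ccl4, Ccl5, Ccl7 or Ccl12 occurred in the annotated transcripts of another gene. Of the Cxcl2 windows 5.8% occurred in Cxcl3, of the Cxcl10 windows 8.0% in Art3 on the opposite strand, and of the Ccl9 windows 2.0% in many genes. Neither Cxcl3 nor Art3 had a row, and the part of this sharing in the values was not tested. In bulk RNA, fewer cells making a ligand and less RNA in each cell cannot be told apart.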

How the data were processed

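The authors deposited 1 table of genes by libraries that names no unit. Its values were taken to be FPKM made by the authors: they are not whole and sum to 224291 to 230292 per library. In 1161 to 1238 single-transcript genes per library, 76.6% to 77.9% of values times length lay within 0.1 of a whole multiple of 1 step. By chance 20% would lie so for a step fixed in advance. The step was chosen as the one with the highest share, so 20% is too low a chance level here. That step gives the estimated depth, 5.25 to 7.61 Gb of aligned sequence. HISAT2, StringTie, edgeR and the human build hg38 are named, without roles, per the submitters' processing notes, although the identifiers are mouse Ensembl genes; their annotation and whether counting used strand: not given in the sources used here. In every gene 1 group mean reached 0.501 FPKM or more, so weaker genes were not analysed here.

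Symbols and coordinates came from GENCODE M21 (GRCm38), matching 12300 identifiers without version. The 12222 genes that reached 0.5 FPKM in 3 or more libraries were fitted with limma 3.58.1 in R 4.3.3 on log2(FPKM + 1), with a mean-variance trend and no covariate, and Benjamini-Hochberg adjusted over all genes at 0.05. The fit was tested on simulated data. The members, lists and tests were chosen with earlier results of these data known. Named genes are Gch1, every ligand and chemokine receptor with a row, called genes and the 4 smallest p of each other list and of the neighbours, and the 3 genes most like Ccl2 and Cxcl10. Alternatives were the replicate number as a block, pseudocounts of 0.1 and 0.5, each library left out, a minimum mean of 5 FPKM, no filter, quantile normalization, median-of-ratios scaling, and a loess trend (span 0.3) with GC content and length removed. The labels' replicate numbers were not taken to pair the libraries. Some items are not reported here.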

Additional observations from a re-analysis of the deposited data

How the results depend on the processing

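No ligand passed the adjusted limma test under any of the 14 alternatives (0 in each, 4 at an unadjusted p under 0.05 as reported). Leaving out 1 library in turn moved the median log2 fold change of the 9 between -0.22 and -0.12. The count with a lower mean ran from 7 to 8. The count lower without overlap ran from 4 to 6, where 12.2% to 13.8% of all genes were, against 8.36% over all 6 libraries. With 1 library fewer more genes separate, so these counts are not comparable with the 4 reported. The count lower at an unadjusted p under 0.05 ran from 3 to 5. Over all 12222 genes, 1036 to 1657 were at that p in either direction, against 1380 with all 6 libraries. With a mean of at least 5 FPKM only 4 ligands were tested: 3 had a lower mean, 2 were lower without overlap and 2 lower at an unadjusted p under 0.05. With quantile normalization 3 were lower without overlap and 3 at an unadjusted p under 0.05. Genes at that p in either direction numbered 791 of 7079 with the 5 FPKM minimum and 1418 of 12222 with quantile normalization. The shares of all genes lower without overlap are not given here for these 2 settings. The median of the ligands was -0.20 with the GC and length trend removed. Of 121 comparisons of single ligands with their reported values 2 changed sign, both of Ccl9: -0.03 without control replicate 1 and -0.01 without knockdown replicate 3, in a range of -0.03 to 0.11 without 1 library. Among the other named genes, Cxcr2 turned to 0.03 without control replicate 3, 0.02 without knockdown replicate 2 and 0.00 without knockdown replicate 3 (range -0.09 to 0.03), and Cx3cr1 to 0.04 without control replicate 3 (range -0.80 to 0.04); the cause was not tested. Same-numbered libraries had weakly correlated deviations (r = 0.0950, 0.0593 and 0.0936 for numbers 1 to 3, across genes, which are not independent), every library highest with its namesake. With 3 libraries per group, each centred on its group mean, some matching of libraries tends to come out best. These values therefore cannot decide whether the libraries are paired, which the design does not state. With the replicate number as a block, the median of the ligands was -0.17 and 4 were lower at an unadjusted p under 0.05. Of all 12222 genes, 1330 were at that p in either direction with the block. The genes called over the whole table went from 10 to 0. Depth limits Cxcl10, Ccl12 and Ccl9, whose estimated coverage was 4.30 to 15.0 bases per position.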
